A study of Mus musculus with 2 samples.

Results

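In the mouse fetal testis, male germ cells divide by mitosis until about the middle of gestation and then leave the cell cycle one after another, so that cycling and resting germ cells lie side by side for a time. The germ cells described here are those of E13.5 (embryonic day, counted from mating) that still carried many transcripts of mitosis. They were chosen by measured values: among E13.5 germ cells, the members are the barcodes in the highest 25% of a score, the summed UMIs of Plk1, Aurka, Ccnb1, Cdc20, Cenpf and Tpx2 per 10000 UMIs of the barcode. A UMI is a molecular tag, so that each counted UMI stands for 1 captured transcript. This gave 638 members of 2549 germ barcodes at E13.5, of 2992 barcodes in that library and 5839 in both libraries. They are set against the 1275 barcodes of the same library at or below the 50th percentile of the score (the low-score set). The 636 barcodes in between are the middle set.

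Both libraries came from male embryos of the CD1 strain, which is outbred, and the cells were sorted by flow cytometry for Oct4-GFP, a fluorescent reporter of Pou5f1, before 10x v2 droplet sequencing, a 3′ assay. The groups are E13.5 and E12.5 germ cells, with no treatment named in the labels and 1 library per stage. The labels do not say how many embryos were pooled or how the Oct4-GFP allele was built. A germ barcode had at least 500 genes, at least 5000 UMIs, under 10% of UMIs from mitochondrial genes, and at least 0.2% of UMIs from Dazl, Pou5f1, Dppa3 and Dppa5a.

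Entry into mitosis is driven by cyclin B bound to Cdk1, and Plk1 and Aurka help to switch that complex on and to build the spindle. Kinesin motors, the kinetochores and the chromosomal passenger complex then attach and sort the chromosomes, and the anaphase-promoting complex with its activator Cdc20 ends the phase by marking cyclin B for destruction. Transcripts of these genes build up through G2 and peak at mitosis, so counts of RNA do not tell a cell in late G2 from one in M phase. In the fetal testis, germ cells that leave this cycle rest in G0/G1 until after birth, and Nanos2, an RNA-binding protein, is a known factor of their male fate.

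With 1 library per stage, and with members picked on transcripts of the same cells, no difference below has a p-value. Values are summed UMIs of a set scaled to a total of 1000000 (CPM, counts of the gene per that many UMIs), and ratios are members over the low-score set, with exact 95% binomial intervals that cover counting error only. A gene is called higher or lower where the ratio is at least 1.5-fold in that direction, a class of size.

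The score ran between 19.6 and 46.3 in members, with a median of 24.3, and between 0.716 and 11.2 in the low-score set, with a median of 6.88. The cut fell within a continuous distribution: the 5 members nearest to it scored 19.56 to 19.59, and the 5 barcodes just outside scored 19.45 to 19.56. Members held a median of 25181 UMIs and 4657 genes per barcode, against 20564 UMIs and 4232 genes in the low-score set. Mitochondrial UMIs were 4.30% in members and 4.92% in the low-score set, at the median. The 9 germ cell markers summed to 7492 CPM in members and 7565 CPM in the low-score set. Among them are Dazl, Pou5f1, Dppa3 and Dppa5a, which chose the germ barcodes and held 0.686% and 0.691% of UMIs at the median, members first. A high level in both sets thus follows largely from the choice of barcodes. Sertoli markers summed to 12.8 and 12.2 CPM, macrophage markers to 0.848 and 1.63 CPM, fetal Leydig markers to 1.09 and 0.580 CPM, interstitial markers to 0.242 and 0.689 CPM, and surface epithelial markers to 5.09 and 3.59 CPM, members first. Endothelial markers, of which Pecam1 is also a germ cell transcript at these stages, summed to 47.0 CPM in members and 42.8 CPM in the low-score set. Erythroid markers were at 23.1 CPM in members and 463 CPM in the low-score set, where a single barcode with 30.1% of its UMIs from these genes held the excess; without it the low-score set was at 22.9 CPM. Scrublet called 2 members and 12 barcodes of the low-score set doublets. The libraries shared 24 barcode sequences, 6 of them members.

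The 6 genes of the score are higher in members by construction, and their levels are given as a description. Cdc20, the activator of the anaphase-promoting complex, had a lowest of 0, a median of 11 and a highest of 33 UMIs per member, against a lowest of 0, a median of 1 and a highest of 8 in the low-score set. That is 448 CPM in members and 53.5 CPM in the low-score set, an 8.36-fold ratio. Ccnb1, cyclin B, had a lowest of 0, a median of 13 and a highest of 50 UMIs per member, against a lowest of 0, a median of 2 and a highest of 15 in the low-score set. The single-barcode counts of both genes overlapped between the sets, although the summed levels were far apart. Plk1, the kinase of mitotic entry, was at 95.7 CPM in members and 11.8 CPM in the low-score set, and Aurka, the spindle pole kinase, at 138 and 20.8 CPM. Tpx2, which activates Aurka on the spindle, was at 183 CPM in members and 33.6 CPM in the low-score set. Cenpf, a large kinetochore protein, was the most abundant of the score genes and the least changed, at 1123 CPM in members against 475 CPM in the low-score set.

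As a description of the chosen cells, in which the score fixes the direction, all 6 score genes were seen together in 73.2% of members (95% interval 69.6 to 76.6) and in 4.31% of the low-score set (3.27 to 5.58), and every member had at least 3 of them. When each barcode was thinned to 10000 UMIs, these shares were 32.2% of members and 0.323% of the low-score set. When each gene in turn was left out of the score and the sets were taken again, between 86.8% (without Cenpf) and 96.1% (without Plk1) of the members stayed. The gene left out, which then had no part in the choice, was 6.95-fold higher for Plk1, 6.71-fold for Cdc20, 5.48-fold for Aurka, 4.83-fold for Ccnb1, 4.73-fold for Tpx2 and 2.02-fold for Cenpf. Against all other germ barcodes the log2 ratio of Cdc20 was 1.99, and against the lowest 25% of the score 3.68, beside 3.06 here, so the ratios of score genes depend on the cells set against them.

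A further pair of mitotic markers outside the score, Nusap1 and Kpna2, was named for the set with results of these data known. Nusap1, a protein that bundles spindle microtubules, had a lowest of 0, a median of 3 and a highest of 16 UMIs per member, against a lowest of 0, a median of 0 and a highest of 7 in the low-score set. It was at 150.5 CPM in members and 25.4 CPM in the low-score set, 5.93-fold higher (95% interval 5.45 to 6.46). Kpna2, an importin that carries cargo into the nucleus, was at 122 CPM in members and 28.0 CPM in the low-score set, 4.37-fold higher (4.02 to 4.75). The log2 ratio of Nusap1, 2.57, was 1.68 against all other germ barcodes and 3.26 against the lowest 25% of the score. For both genes the middle set lay between, at 87.7 CPM for Nusap1 and 62.3 CPM for Kpna2. The other markers named for the set, Plk1, Aurka, Ccnb1 and Cdc20, belong to the score. None of the markers is thus independent support for the name given to these cells.

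**Figure D1:**
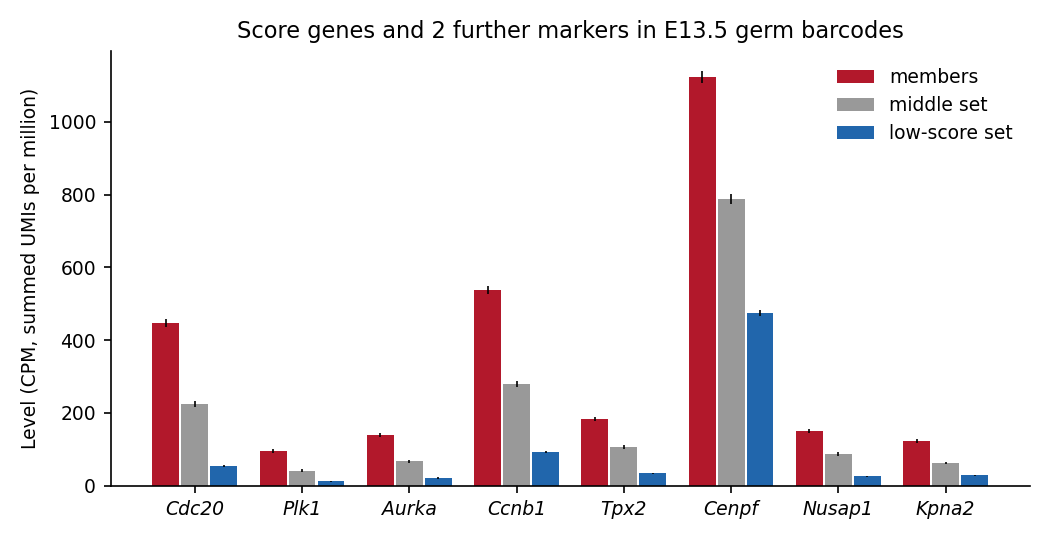
Levels of the 6 score genes and of Nusap1 and Kpna2 at E13.5, as CPM in members, the middle set and the low-score set; bars are levels and whiskers 95% counting intervals. Each gene steps down across the 3 sets, and Cenpf keeps the highest level in the low-score set, at 475 CPM.

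These genes lie on 6 chromosomes in GRCm38, the build of the deposited counts: Plk1 at chr7:122159439-122169873, Aurka at chr2:172356190-172370535, Ccnb1 at chr13:100778650-100786570, Cdc20 at chr4:118432901-118437352, Cenpf at chr1:189640606-189688086, Tpx2 at chr2:152847964-152895321, Kpna2 at chr11:106988629-106999541 and Nusap1 at chr2:119618298-119651244, all protein-coding in GENCODE M21. Many promoters of G2 and M phase genes are known to hold a cell cycle gene homology region (CHR) bound by the MuvB complex and, a short way upstream, CCAAT boxes bound by NF-Y. The letters TTTGAA and TTCGAA (CHR) and CCAAT were searched on both strands in RefSeq promoters of GRCm38.p6, which run 250 bases before to 50 bases after a gene's start, with the first start listed for each gene. Shown here are 4 genes whose transcripts were higher in members, Cdc20, Kpna2 and Ube2c, which hold CHR letters, and Nusap1, which does not, and Nanos2, which was lower, each as the 250 bases before its start, 5′ to 3′ on the gene's strand. Capitals mark CHR letters (TTTGAA or TTCAAA) and CCAAT letters (CCAAT or ATTGG). In Ube2c a pair of CCAAT matches on opposite strands overlaps.
Cdc20 (chr4:118437344-118437593, minus strand): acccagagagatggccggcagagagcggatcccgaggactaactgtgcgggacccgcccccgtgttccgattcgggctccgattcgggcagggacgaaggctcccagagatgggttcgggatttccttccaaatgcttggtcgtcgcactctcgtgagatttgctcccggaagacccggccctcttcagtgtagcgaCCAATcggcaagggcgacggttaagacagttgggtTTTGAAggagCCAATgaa
Kpna2 (chr11:106999526-106999775, minus strand): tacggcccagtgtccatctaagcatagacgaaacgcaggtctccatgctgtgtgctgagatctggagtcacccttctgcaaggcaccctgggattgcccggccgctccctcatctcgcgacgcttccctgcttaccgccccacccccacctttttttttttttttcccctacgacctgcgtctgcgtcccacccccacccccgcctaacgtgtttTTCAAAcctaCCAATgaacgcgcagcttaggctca
Ube2c (chr2:164769679-164769928, plus strand): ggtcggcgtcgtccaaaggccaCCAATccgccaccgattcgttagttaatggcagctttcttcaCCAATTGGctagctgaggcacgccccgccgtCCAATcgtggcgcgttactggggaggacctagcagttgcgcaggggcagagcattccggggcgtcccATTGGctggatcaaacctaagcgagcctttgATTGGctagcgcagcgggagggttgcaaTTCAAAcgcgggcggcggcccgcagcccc
Nusap1 (chr2:119618048-119618297, plus strand): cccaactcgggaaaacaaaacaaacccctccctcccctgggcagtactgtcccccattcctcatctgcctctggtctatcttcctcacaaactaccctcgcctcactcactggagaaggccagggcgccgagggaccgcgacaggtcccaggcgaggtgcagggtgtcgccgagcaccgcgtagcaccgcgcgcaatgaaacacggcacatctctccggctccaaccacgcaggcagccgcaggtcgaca
Nanos2 (chr7:18987274-18987523, plus strand): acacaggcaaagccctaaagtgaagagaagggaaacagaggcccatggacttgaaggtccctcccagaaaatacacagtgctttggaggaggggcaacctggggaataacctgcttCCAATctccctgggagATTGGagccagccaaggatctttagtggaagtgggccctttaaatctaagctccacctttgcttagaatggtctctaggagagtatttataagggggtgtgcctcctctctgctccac
In Cdc20, Kpna2 and Ube2c the CHR letters began 18, 35 and 29 bases before the start, and in Plk1 and Aurka, not printed here, 31 and 33 bases after it. Ccnb1, also not printed, held CCAAT letters and no CHR letters, as did Nanos2, and Nusap1 held neither. Among all 27025 promoters, 19.4% held CHR letters, 37.9% held CCAAT letters and 7.70% held both. Of the 222 genes that were higher in members and not in the score, 168 had a promoter in the table: 41.1% of these held CHR letters, 56.5% CCAAT letters and 31.5% both. Of the 129 promoters of lower genes, 12.4% held CHR letters, 47.3% CCAAT letters and 4.65% both. Over all tested genes with a promoter, 5343 of 6835, these shares were 14.1%, 40.4% and 6.12%. A match is a run of letters and not a shown binding site.

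Members differed from the low-score set at few genes. Of 6835 genes at 10 CPM or more over all E13.5 germ barcodes, 228 (3.34%) were at least 1.5-fold higher in members and 161 (2.36%) at least 1.5-fold lower, and 94.3% lay between. The median log2 ratio of all tested genes was 0.01. The 228 higher genes include the 6 score genes, which leaves 222 outside the score. At 2-fold, 77 genes were higher and 29 lower. The list counts below are to be read against these shares, and the lists were compiled with results of these data known.

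**Figure D2:**
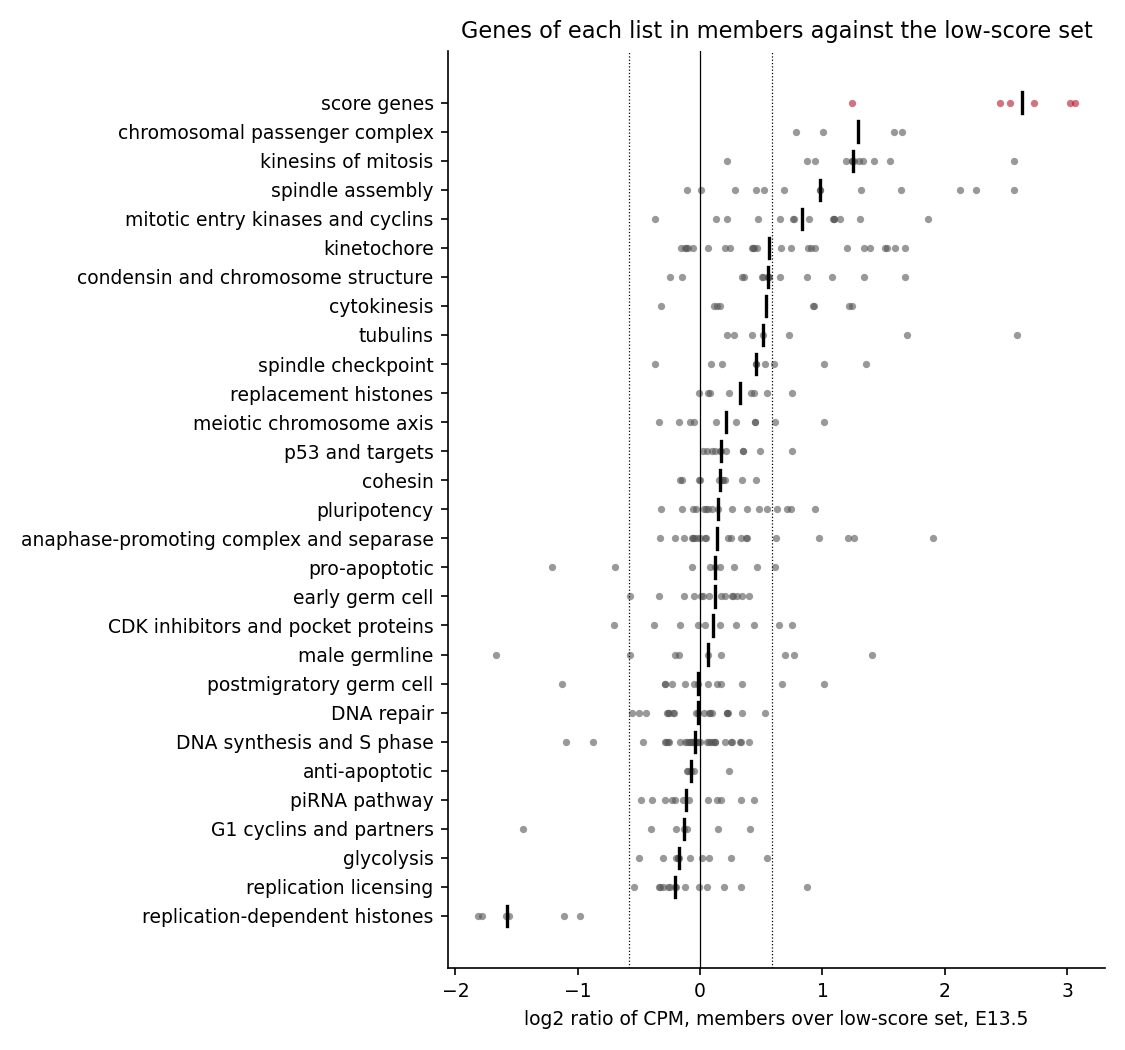
Each point is 1 gene at 10 CPM or more, placed by its log2 ratio of members over the low-score set at E13.5; rows are gene lists ordered by their median (black bars), the score genes are in red, and dotted lines mark 1.5-fold. Lists of spindle and chromosome segregation genes lie to the right, replication-dependent histones lie at the left end with a median of -1.57, and most other lists are centred near 0.

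Motors and spindle proteins were mostly higher in members. Of 12 mitotic kinesins, 11 were higher and 0 lower, with a median log2 ratio of 1.25 and a summed level of 723 CPM in members against 312 CPM in the low-score set. Kif23, the motor of the central spindle, was at 67.0 CPM in members and 11.3 CPM in the low-score set (log2 ratio 2.57, 95% interval 2.38 to 2.75; 1.93 against all other germ barcodes and 3.17 against the lowest 25%). Kif11, which pushes the spindle poles apart, was at 69.2 CPM in members and 23.7 CPM in the low-score set, and Kif20b, a motor of late cytokinesis and the most abundant of them, at 134 and 70.0 CPM. Kif15, with a log2 ratio of 0.22, was the kinesin that stayed under 1.5-fold. Of 13 spindle assembly genes, 8 were higher, with Hmmr, a microtubule-binding spindle protein, at 175 CPM in members and 36.6 CPM in the low-score set; its log2 ratio of 2.25 was 1.57 against all other germ barcodes. Prc1, which crosslinks the midzone, was at 161 CPM in members and 64.7 CPM in the low-score set. Numa1 and Pcnt, a pole protein and a centrosome scaffold that cells also use outside mitosis, had log2 ratios of 0.01 and -0.11.

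Tubulins differed by isotype. Of 7 tubulins tested, 3 were higher and 0 lower. Tuba1c was at 77.1 CPM in members and 12.8 CPM in the low-score set (log2 ratio 2.59, 95% interval 2.42 to 2.76, and 1.70 against all other germ barcodes), and Tubb4b at 955 and 295 CPM (log2 ratio 1.69). Tubb5, the most abundant, had a log2 ratio of 0.42, and Tuba1a one of 0.22. Tubulin genes are close in sequence, so reads could be split between them in the counting.

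Genes that enter and run mitosis were mostly higher. Of 14 entry kinases, cyclins and phosphatases outside the score, 10 were higher and 0 lower, with a summed ratio of 1.603. Cdk1, the catalytic partner of cyclin B, had a lowest of 0, a median of 3 and a highest of 20 UMIs per member and a lowest of 0, a median of 1 and a highest of 12 in the low-score set, at 153 CPM in members and 61.6 CPM in the low-score set. Ccnf, a cyclin that acts in an SCF ubiquitin ligase, was at 76.5 CPM in members and 21.1 CPM in the low-score set (log2 ratio 1.86). Ccna2, cyclin A, which serves both S phase and G2, had a log2 ratio of 1.09, and Ccnb2 one of 0.76. Ensa and Arpp19, the phosphatase inhibitors downstream of the Greatwall kinase, had log2 ratios of -0.37 and 0.13.

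At the chromosomes, all 4 members of the chromosomal passenger complex were higher: Incenp, its scaffold, was at 207 CPM in members and 66.1 CPM in the low-score set, and Aurkb, its kinase, at 53.5 and 17.9 CPM. Birc5 had a log2 ratio of 1.01 and Cdca8 one of 0.79. Of 24 kinetochore and centromere genes, 12 were higher and 0 lower. Cenpe, a kinetochore motor, was at 212 CPM in members and 70.5 CPM in the low-score set, and Cenpa, the histone that marks centromeres, at 382 and 134 CPM. Cenpl, of the inner kinetochore, was at 31.4 CPM in members and 9.83 CPM in the low-score set. Zwint and Cenpw, also of the kinetochore, had log2 ratios of -0.13 and -0.16. Of 9 spindle checkpoint genes, 3 were higher, among them Bub3 (log2 ratio 1.35) and Bub1b (1.01), which hold back anaphase until chromosomes are attached. Mad1l1 and Zwilch, of the same checkpoint, had log2 ratios of 0.09 and -0.37.

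The exit machinery was divided. Of 20 genes of the anaphase-promoting complex, its partners and separase, 5 were higher, and the median log2 ratio was 0.14. Ube2c, the E2 enzyme that starts ubiquitin chains for the complex, had a lowest of 0, a median of 23 and a highest of 62 UMIs per member, against a lowest of 0, a median of 5 and a highest of 48 in the low-score set. Its level was 938 CPM in members and 251 CPM in the low-score set. Ube2s, which extends those chains, was at 1645 and 711 CPM, and Fzr1, the activator that follows Cdc20, at 72.5 and 30.4 CPM. The others called were Pttg1, the securin that holds separase, at 313 and 159.8 CPM, and Cdc27, the 1 core subunit among them, at 53.8 and 35.0 CPM, both chosen after their values were seen. Espl1, the separase, and Fbxo5 (Emi1), an inhibitor of the complex, had log2 ratios of 0.39 and -0.05, and were likewise chosen after their values were seen. The core subunits Anapc1 and Anapc11 had log2 ratios of -0.33 and -0.21. Of 8 cytokinesis genes, 4 were higher, with Ect2 at a log2 ratio of 1.24, Racgap1 at 1.22, Rhoa, the GTPase they control, at 0.14, and Cit at -0.32.

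Chromosome packing genes were higher in part. Of 14 condensin and chromosome structure genes, 5 were higher and 0 lower. Top2a, the topoisomerase that untangles sister chromatids, had a lowest of 0, a median of 15 and a highest of 49 UMIs per member, against a lowest of 0, a median of 3 and a highest of 35 in the low-score set, and 618 CPM in members against 245 CPM in the low-score set. Mki67, the coat of mitotic chromosomes and a common marker of cycling cells, was at 155 CPM in members and 48.7 CPM in the low-score set (3.18-fold, 95% interval 2.98 to 3.40), with a log2 ratio of 1.67, which was 1.03 against all other germ barcodes and 2.43 against the lowest 25%. Hmgb2, a chromatin protein, was at 1727 CPM in members and 819 CPM in the low-score set. Ncapd3 and Ncapg2, subunits of condensin II, had log2 ratios of -0.15 and -0.25. Of 10 cohesin genes, 0 were higher and 0 lower, which is near the shares over all tested genes. Their summed ratio was 1.13 (95% interval 1.11 to 1.15). Rad21, the subunit that separase cuts, had a log2 ratio of 0.46. Smc1a, of the ring, had 0.35, Nipbl, its loader, -0.16, and Stag2 -0.15.

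The genes of S phase did not follow mitosis. Replication-dependent histones, made while DNA is copied, were lower in members: all 6 that reached 10 CPM, of 31 in the file, were lower, with a summed level of 170.2 CPM in members against 445 CPM in the low-score set. Hist1h1b was at 33.2 CPM in members and 114 CPM in the low-score set, 3.43-fold lower (95% interval 3.13 to 3.77), and Hist1h2ap at 36.4 and 128 CPM. The log2 ratio of Hist1h1b, -1.78, was -1.15 against the lowest 25% of the score, -2.37 for the top 10% and -2.51 with barcodes of at least 2000 genes and under 5% mitochondrial UMIs. Under that last filter the median of the histones was -2.17. Hist1h1e was at 36.2 CPM in members and 71.6 CPM in the low-score set, but its log2 ratio was -0.29 against the lowest 25% of the score. Most transcripts of this class lack a poly(A) tail, some of these genes are near-identical copies, and a 3′ assay counts them in part, so the levels are uncertain. Of 33 genes of DNA synthesis, 0 were higher and 2 were lower, Chaf1b, a histone chaperone of replication, with a log2 ratio of -1.10 and Rrm2, the ribonucleotide reductase subunit, with -0.88, which was -0.57 against the lowest 25%. Of 14 licensing genes, Gins1 was higher (log2 ratio 0.87) and 0 were lower, and Mcm4, a subunit of the replicative helicase, had a log2 ratio of -0.54. Replacement histones, which cells make throughout the cycle, had 1 of 8 higher, H1f0, and their most abundant gene H3f3b had a log2 ratio of 0.08. Of 19 DNA repair genes, 0 were higher and 0 lower, with Fancl, a ubiquitin ligase, at a log2 ratio of 0.53 and Atm, the kinase of double-strand breaks, at -0.55.

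Few members were high for both kinds of transcript. When germ barcodes were ranked by summed licensing and DNA synthesis UMIs, 38 of 638 members (5.96%, 95% interval 4.25 to 8.08) lay in the highest 25% for S phase, against 34.0% of the middle set and 30.1% of the low-score set. With barcodes of at least 2000 genes and under 5% mitochondrial UMIs, 1% of 400 members did. At 10000 UMIs per barcode these shares were 10.2% of members, 33.0% of the middle set and 30.5% of the low-score set. The overlap shares a denominator with the score, since both divide by the UMIs of the same barcode.

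Ordered by deciles of the score, the E13.5 germ barcodes held most S phase transcripts in the middle and most mitotic transcripts at the top. Replication-dependent histones were at 215 CPM in the lowest decile, 716 CPM in the 6th and 134 CPM in the 10th. Rrm2 was at 19.5, 41.2 and 17.4 CPM in the 1st, 5th and 10th decile. The DNA synthesis genes, summed, were at 2723, 4270 and 3473 CPM in the 1st, 6th and 10th decile, so their level at the top stayed above the lowest decile. The mitotic kinesins went up in each step, with 258 CPM in the 1st decile, 443 CPM in the 6th and 786 CPM in the 10th. Within the members themselves, Kpna2 was at 106 CPM in the 9th decile and 150.2 CPM in the 10th, and Mki67 at 154 and 158 CPM. Mki67 thus changed little at the top of the score, and its steepest part lay between the 1st decile, at 20.1 CPM, and the 6th, at 121 CPM. Depth moved with the score too, from a median of 19546 UMIs per barcode in the 1st decile to 26095 in the 10th, and its part in these levels was not tested beyond the thinned values.

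**Figure D3:**
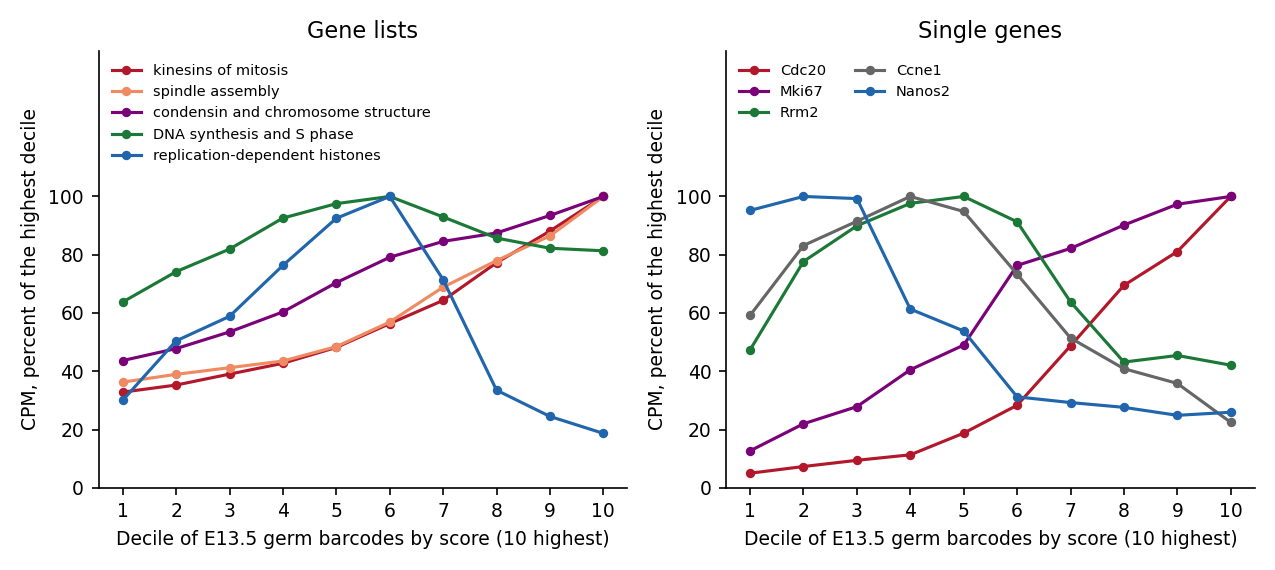
Summed CPM in deciles of the 2549 E13.5 germ barcodes ordered by score, each line scaled to its highest decile; gene lists at left, single genes at right. Histones and DNA synthesis genes peak in the 6th decile and Rrm2 in the 5th, Nanos2 is highest in deciles 1 to 3, and kinesins, spindle genes, Cdc20 and Mki67 are highest in the 10th; the members fill the 9th and 10th deciles and the upper part of the 8th.

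Genes of the step into S phase and of cell cycle exit were next. Ccne1, cyclin E1, which drives entry into S phase, was at 9.51 CPM in members and 25.9 CPM in the low-score set, 2.73-fold lower (95% interval 2.29 to 3.26). At 10000 UMIs per barcode, 8.13% (95% interval 6.12 to 10.6) of members and 18.8% (95% interval 16.7 to 21.1) of the low-score set had a Ccne1 UMI. Ccnd3, a D-type cyclin of G1, was at 56.6 CPM in members and 61.8 CPM in the low-score set, and Ccnd1 at 9.69 and 10.4 CPM. Cdk2 and Cdk4, the kinases that these cyclins bind, had log2 ratios of 0.14 and -0.20, and E2f1, the transcription factor they release, -0.41. Of 7 G1 cyclins and partners tested, Ccne1 was the 1 called.

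CDK inhibitors did not share a direction. Cdkn1c (p57), an inhibitor of cyclin-dependent kinases, had a lowest of 0, a median of 2 and a highest of 18 UMIs per member and a lowest of 0, a median of 1 and a highest of 9 in the low-score set, with 102 CPM in members and 65.3 CPM in the low-score set (1.56-fold, 95% interval 1.46 to 1.67). Cdkn1a (p21) was at 58.7 and 34.8 CPM, and Cdkn2d (p19Ink4d), which acts on the D-cyclin kinases, was lower at 18.8 and 30.5 CPM. Cdkn1b (p27), which holds cells in G1, was at 9.51 CPM in members and 10.8 CPM in the low-score set, with an interval of the log2 ratio from -0.47 to 0.10. Rb1, the retinoblastoma protein, had a log2 ratio of -0.16 (-0.35 to 0.02). Members thus carried more transcript of Cdkn1c and Cdkn1a than the low-score set, and no difference past 1.5-fold in Cdkn1b or Rb1. The log2 ratio of Cdkn1c was 0.55, under 1.5-fold, when each barcode weighed the same, and 0.52 against all other germ barcodes. At 1000 UMIs per barcode, 8.62% of members and 6.51% of the low-score set had a Cdkn1c UMI, against 19.4% of 36 barcodes under the germ cell limit, and the part of free RNA in its counts was not tested.

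Nanos2 set the low-score cells apart. It had a lowest of 0, a median of 0 and a highest of 4 UMIs per member, against a lowest of 0, a median of 0 and a highest of 7 in the low-score set, and 207 UMIs over all members against 1097 over the low-score set. The level was 12.54 CPM in members and 39.8 CPM in the low-score set, 3.17-fold lower (95% interval 2.73 to 3.70). At 10000 UMIs per barcode, 12.1% (95% interval 9.67 to 14.9) of members, 12.2% of the middle set and 29.8% (95% interval 27.3 to 32.5) of the low-score set had a Nanos2 UMI; unthinned, these shares were 24.8%, 23.7% and 44.9%. At 1000 UMIs per barcode, 2.35% of members and 3.61% of the low-score set had a Nanos2 UMI, against 0 of 36 E13.5 barcodes under the germ cell limit, which allows a share of up to 8.33%, and the part of free RNA in these counts was not tested. Across deciles, Nanos2 was at 46.5, 48.8 and 48.4 CPM in the 3 lowest, 29.9 and 26.3 CPM in the next pair, and between 12.1 and 15.2 CPM from the 6th up. Members and the middle set, at 14.5 CPM, thus held nearly equal levels, and the step lay below both.

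Other genes of the male germline went separate ways. Of 9 tested, 3 were higher and 1 lower. Lefty1, a secreted inhibitor of Nodal and a target of Nodal signalling, was at 264 CPM in members, 127 CPM in the middle set and 99.4 CPM in the low-score set (2.65-fold members over low-score set, 95% interval 2.53 to 2.78). Its near relative Lefty2 was at 125 CPM in members and 73.2 CPM in the low-score set, and reads may be split between the pair. Nodal itself was under 10 CPM, at 9.27 CPM in members and 6.28 CPM in the low-score set. Bnc1, a zinc finger protein of germ cells, was at 23.9 and 14.8 CPM. Nanos3, the paralogue that protects early germ cells, was at 46.1 CPM in members and 68.7 CPM in the low-score set, just under 1.5-fold lower with a log2 ratio of -0.58. Dnmt3l, a cofactor of DNA methylation in male germ cells, had 4 UMIs in members and 9 in the low-score set, too few for a level.

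Most other germ cell genes lay under 1.5-fold, while some pluripotency genes were higher. Dazl, an RNA-binding protein of germ cells, had a log2 ratio of 0.34, Ddx4 (Vasa), a helicase of germ granules, -0.29, Pou5f1 -0.15 and Kit, a receptor of germ cells, 0.03. Dazl, Pou5f1, Dppa3 and Dppa5a served to choose germ barcodes in both sets. Of 17 pluripotency genes, 4 were higher and 0 lower. L1td1, an RNA-binding protein of pluripotent cells, was at 93.0 CPM in members and 48.5 CPM in the low-score set, and Klf2, a transcription factor of naive pluripotency, at 62.7 and 37.6 CPM. The other 2 were Tcl1, a cofactor of Akt, at 152 and 92.8 CPM, and Nanog, a core pluripotency factor, at 32.2 and 20.9 CPM, both named after their values were seen. Of 14 early germ cell genes and 12 piRNA pathway genes, 0 were higher and 0 lower, with Tfap2c, an early germline transcription factor, at a log2 ratio of 0.40 and Piwil2, a Piwi protein, at -0.49. Fkbp6, the most abundant of the piRNA genes, had -0.20 and Tdrd12 0.44.

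Of 13 postmigratory germ cell genes, 2 were higher and 1 lower, and meiotic genes were also divided. Stra8, the gatekeeper of meiosis, was at 1.82 CPM in members and 3.23 CPM in the low-score set, too low for a call. Of 10 meiotic chromosome axis genes, 2 were higher and 0 lower: Hormad1, an axis protein, at 63.8 CPM in members and 31.6 CPM in the low-score set, and Smc1b, a meiotic cohesin, at 342 and 223 CPM, which was under 1.5-fold when thinned. Sycp1, of the synaptonemal complex, had a log2 ratio of 0.45 and Sycp3 one of -0.17. Tex101, a germ cell surface protein, was at 34.3 CPM in members and 21.6 CPM in the low-score set, and its log2 ratio of 0.67 came to 0.41 when barcodes were thinned. Taf7l, a germline transcription factor subunit, was lower at 7.27 CPM in members and 15.9 CPM in the low-score set.

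Cell death genes were called in both directions, and glycolysis genes were not called. Of 9 pro-apoptotic genes, Bik (-1.21 on the log2 scale) and Bad (-0.69) were lower and Casp6 (0.62) was higher, all at under 20 CPM, and when barcodes were thinned Bad (-0.45) and Casp6 (0.36) were under 1.5-fold. Bax, which permeabilises mitochondria, was at 584 CPM in members and 553 CPM in the low-score set, and Pmaip1 (Noxa) at 49.6 and 44.3 CPM. Of 11 p53 pathway genes only Cdkn1a was called, and Trp53 had a log2 ratio of 0.49. Of 5 anti-apoptotic and 11 glycolytic genes, 0 were called, and Mcl1, a survival protein, had a log2 ratio of 0.24, Slc2a1, a glucose transporter, 0.54, and Ldha -0.50; Gapdh had a log2 ratio of -0.18.

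The ends of the ranking of genes at 50 CPM or more were as follows. At the upper end stood score and spindle genes with Arl6ip1, a shaper of endoplasmic reticulum tubules, at 903 CPM in members and 256 CPM in the low-score set, and Hn1 (Jpt1), at 457 and 130 CPM. At the lower end, after the histones, came Ogt, which adds O-GlcNAc to proteins, at 57.2 CPM in members and 104 CPM in the low-score set, Scand1 at 38.9 and 69.3 CPM, and Ddit4 (Redd1), an inhibitor of mTORC1, at 50.1 and 85.8 CPM. Pdk1, a kinase that shuts pyruvate dehydrogenase, had a log2 ratio of -0.73, Tle1, a corepressor, -0.67, Upf3b, of nonsense-mediated decay, -0.64, and Sesn3, a sestrin, -0.63. Against all other germ barcodes, Ddit4, Tle1, Upf3b and Sesn3 were under 1.5-fold.

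The question of whether mitotic cells of E13.5 look like those of the day before was put to the E12.5 library. Members are 25.0% of E13.5 germ barcodes, and 654 of 2494 E12.5 germ barcodes, or 26.2% (95% interval 24.5 to 28.0), lay at or above the same cut. At 10000 UMIs, with the cut taken again among the thinned E13.5 barcodes, these shares were 27.3% at E13.5 and 29.3% at E12.5. Thinned scores are whole numbers, and barcodes tied at the cut were kept. The E13.5 share is thus set by the rule and its ties. Of E12.5 germ barcodes, 41.1% (39.2 to 43.1) lay at or below the low-score cut of E13.5. With barcodes of at least 2000 genes and under 5% mitochondrial UMIs, the member cut was taken again as well. Of the E12.5 barcodes kept, 18.9% lay past that new cut. This filter kept 1600 E13.5 and 2276 E12.5 germ barcodes, so the share does not compare with that at the first cut. E12.5 barcodes were then divided at their own percentiles into 624 high-score and 1247 low-score barcodes. Their score had a median of 23.8 in the high-score and 8.18 in the low-score set, beside 24.3 and 6.88 at E13.5. The contrasts of the stages thus span unlike ranges of the score. Of 6881 genes tested there, 160 (2.33%) were at least 1.5-fold higher in the high-score set and 92 (1.34%) at least 1.5-fold lower, fewer than at E13.5 in both directions. Stage and library cannot be told apart with 1 library each.

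The sets stood further apart at E13.5 for most mitotic genes, and Top2a and Mki67 were nearer between the days in high-score than in low-score cells. The score genes themselves had a summed ratio of 3.67 at E13.5 and 2.93 at E12.5. The part of the unlike score ranges in the ratios and counts below was not tested. Entry kinases and cyclins had 10 of 14 higher at E13.5 and 4 of 14 at E12.5, kinetochore genes 12 of 24 and 7 of 26, mitotic kinesins 11 of 12 and 8 of 11, and the chromosomal passenger complex 4 of 4 and 2 of 4. Counts were alike at both days for spindle assembly, with 8 of 13 at E13.5 and 8 of 14 at E12.5, and for cytokinesis, with 4 of 8 and 4 of 9. Cdc20, a score gene whose level in high-score cells is set by the choice of cells, was at 448 CPM in E13.5 members and 398 CPM in the E12.5 high-score set, and in the low-score sets at 53.5 CPM at E13.5 and 85.6 CPM at E12.5. Top2a was at 618 CPM in E13.5 members and 589 CPM in the E12.5 high-score set, but at 245 CPM in the E13.5 and 476 CPM in the E12.5 low-score set. At 10000 UMIs, a Mki67 UMI was seen in 77.5% of E13.5 members and 86.1% of E12.5 high-score cells, and in 30.7% of E13.5 and 71.5% of E12.5 low-score cells. At 1000 UMIs, the Mki67 share was 14.6% of members and 5.56% of 36 barcodes under the germ cell limit. Condensin and chromosome structure genes had a summed ratio of 1.72 at E13.5 and 1.11 at E12.5, and tubulins 1.71 and 1.09.

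DNA synthesis genes and histones stood further apart at E12.5. DNA synthesis genes had a summed ratio of 1.01 at E13.5 and 0.705 at E12.5, with 0 of 33 higher in each and 2 lower at E13.5 against 13 at E12.5. Their summed level in low-score cells was 3513 CPM at E13.5 and 5519 CPM at E12.5. Replication-dependent histones stood at 170.2 CPM in E13.5 members and 187 CPM in E12.5 high-score cells, and at 445 CPM in the E13.5 and 1084 CPM in the E12.5 low-score set. Ccne1 was at 9.51 CPM in E13.5 members and 37.4 CPM in E12.5 high-score cells, and at 25.9 and 84.6 CPM in the low-score sets of E13.5 and E12.5, with log2 ratios of -1.45 at E13.5 and -1.18 at E12.5, so it stood further apart at E13.5.

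**Figure D4:**
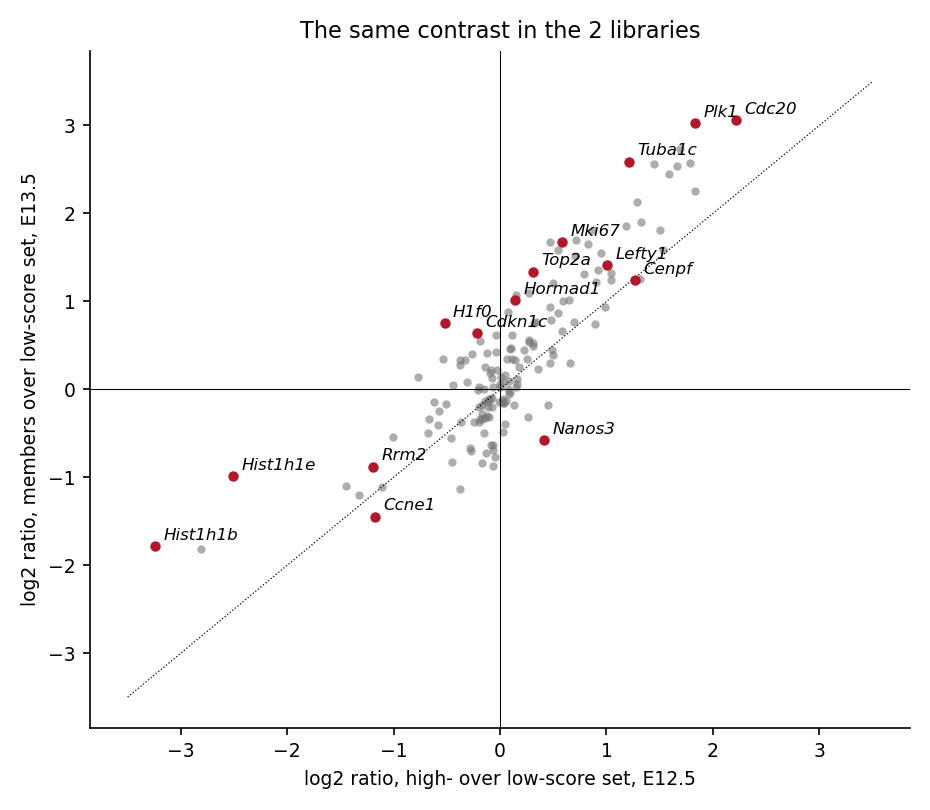
Log2 ratio of members over the low-score set at E13.5 (vertical) against the high-score over the low-score set at E12.5 (horizontal), 1 point per named gene with a ratio at both stages; red points are labelled, and the dotted line marks equal ratios. Mki67, Top2a and Tuba1c lie above the line, Cenpf lies close to it, and Cdkn1c, H1f0 and Nanos3 differ in sign between the stages.

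Genes chosen to separate the 2 libraries were read in members, the E13.5 low-score set and the E12.5 high-score set. Genes at least 2-fold apart were chosen on the E13.5 middle set and the E12.5 low-score set, neither of which is read here, and genes on the cell cycle and DNA repair lists were left out; cell cycle genes on no list, such as Cdkn3, stayed in. The 148 genes chosen as higher at E13.5 summed to 9088 CPM in members and 8958 CPM in the low-score set of E13.5, against 3157 CPM in the E12.5 high-score set. The 218 genes chosen as higher at E12.5 summed to 3729 CPM in members and 3684 CPM in the E13.5 low-score set, against 10915 CPM in the E12.5 high-score set. Gene by gene, members lay nearer on the log2 scale to the E13.5 low-score set than to the E12.5 high-score set for 143 of the 148 (96.6%) and 212 of the 218 (97.2%). The median log2 ratio of members over the E13.5 low-score set was 0.04 for the genes higher at E13.5 and 0.06 for those higher at E12.5, beside 0.01 for all genes. All E13.5 values come from the same library, so that any property of a library moves with them, and its part was not tested. Genes chosen as apart between these 2 libraries favour nearness within a library, so the shares were largely set by that choice. The same count over all tested genes was not made.

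**Figure D5:**
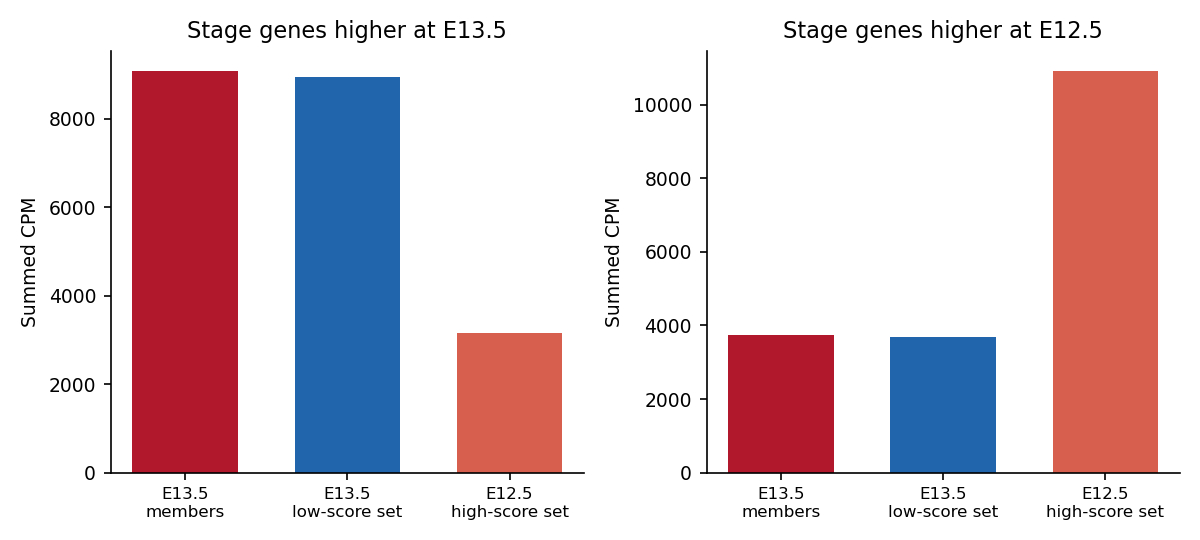
Summed CPM of stage genes in 3 sets of barcodes that did not serve to choose them: E13.5 members, the E13.5 low-score set and the E12.5 high-score set. At left the 148 genes higher at E13.5, at right the 218 genes higher at E12.5; members and the E13.5 low-score set stand at about the same height in both panels.

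Rhox9, Rhox6, Sycp1 and Pmaip1 are given gene by gene. Rhox9, a homeobox gene of the reproductive cluster, was at 48.7 CPM in members and 48.5 CPM in the E13.5 low-score set, against 499 CPM in the E12.5 high-score set, and Rhox6 at 33.0, 27.6 and 276 CPM. Sycp1 was at 222 CPM in members and 163 CPM in the E13.5 low-score set, against 28.3 CPM in the E12.5 high-score set. Pmaip1, a p53 target, stood at 49.6 CPM in members, 44.3 CPM in the E13.5 low-score set and 7.91 CPM in the E12.5 high-score set. At 10000 UMIs, a Rhox9 UMI was seen in 26.2% (95% interval 22.8 to 29.8) of members and 24.1% (95% interval 21.8 to 26.6) of the E13.5 low-score set, against 95.6% (95% interval 93.7 to 97.1) of the E12.5 high-score set. Sycp1 was seen in 75.9% of members and 70.5% of the E13.5 low-score set, against 23.8% of the E12.5 high-score set. For Nanos2, members, at 12.54 CPM, lay between the E13.5 low-score set, at 39.8 CPM, and the E12.5 high-score set, at 0.126 CPM, which held too few UMIs for a ratio.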

How the data were processed

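Each library is 1 table of raw UMI counts per gene and barcode, deposited by the authors without normalisation. Per the submitters' processing notes, Cell Ranger and mm10 (GRCm38) were used. The gene annotation was not given in the sources used here. The libraries hold 59842242 UMIs (E13.5) and 60383440 UMIs (E12.5). Counts were filtered as given in the text, which left 2549 and 2494 germ barcodes, scored, summed per set and expressed as CPM. Ratios were given to genes with at least 3 UMIs in each set, with exact Clopper-Pearson 95% intervals, which treat UMIs as independent and cover counting error only. Barcodes were thinned without replacement to 10000 UMIs for shares, leaving out shallower barcodes. The ratio script was tested on simulated data.

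The members and lists were chosen with earlier results of these data known. Named genes were the score genes and markers, the 10 highest and 10 lowest ratios at 50 CPM or more whose interval excluded 1 (leaving aside haemoglobins, ribosomal proteins, mitochondrial and predicted genes), up to 2 genes at each end of a list with its most abundant, and a fixed set of cell cycle and germline genes. Doublets were called with Scrublet in scanpy 1.11.5 (expected rate 0.06) and kept. Alternatives were equal weight per barcode, TMM factors (edgeR 4.0.16), the score without each gene, other cuts and filters, other minimum levels and thinning; the sets without a barcode rich in erythroid markers, and without barcode sequences found in both libraries, were chosen after seeing the data. Python 3.11.15, numpy 2.4.6, scipy 1.17.1 and R 4.3.3 were used.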

Additional observations from a re-analysis of the deposited data

Results flagged for a closer look

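The results below were singled out because a named gene lay on opposite sides of 0 at E13.5 and E12.5, with both counting intervals excluding 0, in the contrast of high-score over low-score germ barcodes; the difference itself was not tested, since each stage has 1 library. In members of E13.5 the log2 ratio exceeded that of E12.5 by 1.27 for H1f0, a linker histone known from cells that no longer divide that was at 12.9 CPM in members and 7.65 CPM in the low-score set, by 0.86 for Cdkn1c and by 0.74 for H2afx, the histone phosphorylated at DNA breaks. Cdkn1c was at 102 and 65.3 CPM at E13.5, and at 18.1 and 21.1 CPM at E12.5, high-score set first. Among genes of replication and repair, the log2 ratio at E13.5 exceeded that at E12.5 by 0.88 for Bard1, 0.70 for Gmnn, which blocks relicensing, 0.66 for Usp1, 0.66 for Prim1, the primase, 0.53 for Cdc25a and 0.49 for Dut. It exceeded that at E12.5 by 0.66 for Tubg1, 0.46 for Tubb5, 0.39 for Rhox6, 0.39 for H3f3b, 0.28 for Smc3 and 0.21 for Arpp19.

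For germline genes the difference of the log2 ratios, E13.5 minus E12.5, was -0.99 for Nanos3, -0.59 for Lin28a, -0.30 for Sycp3, -0.19 for Dppa3 and -0.13 for Dppa5a. Nanos3 was at 46.1 CPM in members and 68.7 CPM in the low-score set at E13.5, and at 45.4 CPM in the high-score and 34.1 CPM in the low-score set at E12.5. Of these 20 genes, H1f0 and Cdkn1c were at or past 1.5-fold at E13.5, and 0 were at E12.5.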

How the results depend on the processing

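Of 6835 genes, 228 were higher and 161 lower; both counts stayed within 1.5 times of these under equal weights, TMM factors, the score without each gene, the top 10%, thinning, both stricter filters, and without Scrublet calls, the erythroid barcode or shared barcode sequences. Against the lowest 25% of the score, 253 genes were lower; against all other germ barcodes 136 were higher and 76 lower. With no minimum level 1299 were higher and 1392 lower, at 1 CPM 597 and 861, and at 50 CPM 79 and 12. In each setting the member cut was taken anew. The share of E12.5 germ barcodes above it was 30.1% with the score without Cenpf and 29.3% when thinned. It was 18.9% with at least 2000 genes and under 5% mitochondrial UMIs, which kept 1600 E13.5 and 2276 E12.5 germ barcodes. Members among the highest 25% for S phase were 3.14% in the top 10%, 10.2% when thinned and 1% under that stricter filter, where 77 of 223 stage genes higher at E12.5 lay above 0, against 122 of 218; the cause was not tested. Of 74 named genes called, 20 came under 1.5-fold in at least 1 of 17 settings, among them H1f0, Smc1b, Casp6, Lefty2 and Hist1h1e, and 1 changed sign: Hba-a1, with a log2 ratio of 0.24 without the erythroid barcode. No paired analysis was possible because each stage has 1 library.

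With 1 library per stage, differences between animals or preparations cannot be measured, and the intervals cover counting only. The score is continuous, so its cuts set the size of each ratio. The medians of 25181 UMIs per member and 20564 per low-score barcode leave genes at under 10 CPM with a UMI in a minority of barcodes. Their per-cell shares therefore move with depth. RNA counts do not separate G2 from M phase.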

Other observations

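Gene groups outside the lists were looked at after the values had been seen, so their counts describe these libraries and support nothing further. Fam83d, which brings a kinase to the spindle, had the highest ratio of all tested genes, at 26.5 CPM in members and 2.97 CPM in the low-score set. Aspm, of the spindle poles, was at 52.1 and 16.6 CPM, Cdkn3, a phosphatase of Cdk1, at 44.1 and 11.6 CPM, and Cks2, which docks Cdk1 on its targets, at 1064 and 463 CPM. Blnk, known as an adaptor of B cell receptor signalling, was at 118 CPM in members and 37.6 CPM in the low-score set, and at 82.1 and 32.9 CPM at E12.5. Tuba3b and Tuba3a, testis alpha-tubulins of near-identical sequence, had log2 ratios of 2.06 and 1.41 at E13.5, and 0.37 and -0.04 at E12.5.

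A pair of genes of sterol synthesis was also on the high side in members, chosen after their values were seen. Msmo1, a sterol oxidase, was at 75.1 CPM in members and 33.6 CPM in the low-score set, with a log2 ratio of 1.16 (95% interval 1.04 to 1.29). Sqle, squalene epoxidase, was at 104 CPM in members and 55.3 CPM in the low-score set, with a log2 ratio of 0.91 (0.81 to 1.01).

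Genes that restrain growth or answer nutrient stress were mostly on the low side. Of 13 tested, 0 were higher and 6 lower, with a median log2 ratio of -0.57 at E13.5 and -0.00 at E12.5. Ucp2, an uncoupling protein of mitochondria, was at 6.96 CPM in members and 24.8 CPM in the low-score set, Mxd4, an antagonist of Myc, at 15.8 and 37.3 CPM, and Foxo3 had a log2 ratio of -0.60. The other lower genes were Ddit4, Pdk1 and Sesn3, and 5 of the 6 had been seen before the list was made. Snhg11, a long noncoding RNA, had the lowest ratio of all tested genes outside the haemoglobins, at 5.03 CPM in members and 24.1 CPM in the low-score set.

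Ribosomal protein genes took 304675 CPM in members and 329976 CPM in the low-score set, with 80 of 84 below 0 on the log2 scale and 0 past 1.5-fold. Mitochondrially encoded genes took 42976 and 49201 CPM, with 12 of 12 below 0. Since CPM values share a total, these abundant classes move against all others.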
